A study of Mus musculus with 20 samples.

Results

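The genes of arginine metabolism were followed in RNA of mouse mammary tumours, 66cl4 and 67NR, after sorting into CD45+ and CD45- cells. The set holds 9 of the 52783 genes in the deposited table. Its members were chosen by name, and the high Arg1 level of 66cl4 CD45+ cells in these same libraries was known when they were chosen. They are the arginases Arg1 and Arg2, the inducible nitric oxide synthase Nos2, the cationic amino acid transporters Slc7a1 and Slc7a2, the arginine-making enzymes Ass1 and Asl, and the ornithine-using enzymes Odc1 and Oat. 66cl4 and 67NR are cell lines of the 4T1 mouse breast cancer model, and 66cl4 tumours spread to the lungs whereas 67NR tumours do not. Each line was grown as an orthotopic tumour in the mammary fat pad, in female BALB/cJ mice aged 8 to 12 weeks by the study's methods, with no further treatment, and the tumours were sorted for live cells by CD45, the surface protein of leukocytes. There were 5 animals per tumour, and each gave 1 CD45+ and 1 CD45- library, hence 20 libraries in 4 groups of 5. Each tumour model is a single cell line. The CD45- gate holds cancer cells together with other cells of the host that lack CD45, so a value in it is an average over both.

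Arginine can be used along several routes. Arginases split it into urea and ornithine, and Nos2 turns it into nitric oxide and citrulline. Macrophages and neutrophils are known to use both routes, and arginase of myeloid cells is known for depleting arginine from around T cells. Cells make arginine from citrulline in a pair of steps, first by Ass1, which joins citrulline to aspartate, and then by Asl, which splits the product into arginine and fumarate. Some cancers are known to lack Ass1 and to rely on arginine taken up from outside. Ornithine goes on to polyamines through Odc1 or towards proline and glutamate through Oat.

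The total count per library was 12960000 to 28080314 with a median of 18395006. Groups follow the sample titles. The cell type recorded for 66cl4 animals 5 and 6 named the opposite gate, and results that changed without these animals are given with both values. In 10 of 10 animals Ptprc, which codes for CD45, was higher in the CD45+ library (33.6 to 1932 times). A level below is a count divided by the library's size factor (normalised count), and levels of different genes are compared only in TPM, in which counts are divided by transcript length and scaled to a common total per library. A gene was called when its adjusted p by edgeR's quasi-likelihood test was under 0.05 and its log2 fold change was over 1 in either direction. The study took Arg1 from the CD45+ cells of these libraries, and Slc7a2 is in a gene list it drew from them, so wherever CD45+ libraries enter a comparison these genes are described without a test, and counts of called members are over the 7 others. In sorted bulk RNA, fewer cells of a type and less RNA per cell cannot be told apart.

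The 250 bases before the annotated starts of Ass1 and Odc1 are shown because, among the tested members, Ass1 had the largest difference between the tumours and Odc1 was called in both gates. RefSeq held promoter windows for 4 of the 9 members (Ass1, Odc1, Oat and Slc7a1). Capitals mark matches to the E-box CACGTG or the GC box GGGCGG, searched on both strands. Such motifs can share bases, but no matches did in these windows. The Ass1 window is chr2:31470020-31470269 and the Odc1 window chr12:17544623-17544872, both on the plus strand of GRCm38.p6.
Ass1: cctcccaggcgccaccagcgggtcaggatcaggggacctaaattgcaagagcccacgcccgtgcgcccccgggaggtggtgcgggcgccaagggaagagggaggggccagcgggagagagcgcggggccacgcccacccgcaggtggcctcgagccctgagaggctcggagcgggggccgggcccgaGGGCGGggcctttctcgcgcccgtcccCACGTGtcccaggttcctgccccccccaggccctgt
Odc1: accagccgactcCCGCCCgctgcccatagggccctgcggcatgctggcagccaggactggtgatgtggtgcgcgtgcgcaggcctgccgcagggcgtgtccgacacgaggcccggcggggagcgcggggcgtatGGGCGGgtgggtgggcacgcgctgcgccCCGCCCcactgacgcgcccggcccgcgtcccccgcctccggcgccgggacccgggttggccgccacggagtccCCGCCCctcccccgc
The Ass1 window held 1 E-box and 1 GC box, and the Odc1 window held 4 GC boxes and no E-box. Of the 32851 RefSeq windows of this length, 6.02% held the E-box and 32.7% the GC box. The Ass1 window had 23 CG dinucleotides and the Odc1 window 35, against a median of 6 over all windows.

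In CD45+ cells the arginases Arg1 and Arg2 were the members with the highest TPM in 66cl4 tumours, and both had lower levels in 67NR tumours. Arg1 (ENSMUSG00000019987), the cytosolic arginase, had 12708, 5826, 20145, 18522 and 10694 normalised counts in 66cl4 CD45+ cells of animals 3 to 7. In 67NR CD45+ cells it had 1114, 993, 137, 2474 and 136 normalised counts in animals 1, 4, 5, 6 and 7. All 66cl4 libraries were above all those of 67NR, and the 67NR libraries themselves spread 18.2-fold, with animals 5 and 7 lowest. The means were 13579 ± 5847 and 971 ± 958 (SD, n = 5), a ratio of 14.0. It became 22.8 without 67NR animal 6, the highest of its group. In TPM, Arg1 averaged 794 ± 289 in 66cl4 CD45+ cells (SD, n = 5), which placed it at rank 157 among the genes with a transcript length, and 57.9 ± 61.4 in 67NR CD45+ cells, at rank 1645.

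Arg2 (ENSMUSG00000021125), the mitochondrial arginase, followed the same order by a smaller step. In 66cl4 CD45+ cells it had 2060, 1275, 2548, 2234 and 920 normalised counts in animals 3 to 7. In 67NR CD45+ cells it had 1116, 667, 554, 627 and 327 normalised counts in animals 1, 4, 5, 6 and 7. The groups overlapped only in that 66cl4 animal 7 lay below 67NR animal 1. The log2 fold change was 1.45 (standard error, SE, 0.356, edgeR adjusted p = 0.0148), so Arg2 was called higher in 66cl4. Without 66cl4 animals 5 and 6 the log2 fold change was 1.10 and the call was lost (edgeR adjusted p = 0.0841, against 0.000174 to 0.0841 over all alternatives). Arg1 made up 81.5 to 91.8% of the arginase TPM in 66cl4 CD45+ libraries and 19.3 to 79.2% in those of 67NR, where Arg2 was the more abundant arginase in animals 1, 5 and 7.

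Nos2 (ENSMUSG00000020826), the enzyme that competes with arginases for arginine in myeloid cells, was low in CD45+ cells of both tumours. It had 80.7, 34.4, 75.2, 44.2 and 36.3 normalised counts in 66cl4 CD45+ cells of animals 3 to 7. In 67NR CD45+ cells it had 103, 119, 5.08, 25.2 and 7.20 normalised counts in animals 1, 4, 5, 6 and 7. The 67NR libraries reached both above and below all 66cl4 libraries, and animals 5 and 7, the lowest for Arg1, were also the lowest for Nos2. The log2 fold change between the tumours was 0.06 with a 95% interval from -1.62 to 1.73, so a difference in either direction of up to about that size was not detectable (edgeR adjusted p = 0.972). The ratio of Arg1 to Nos2 in TPM was 447 to 1190 in 66cl4 CD45+ libraries and 23.7 to 279 in 67NR CD45+ libraries.

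**Figure D1:**
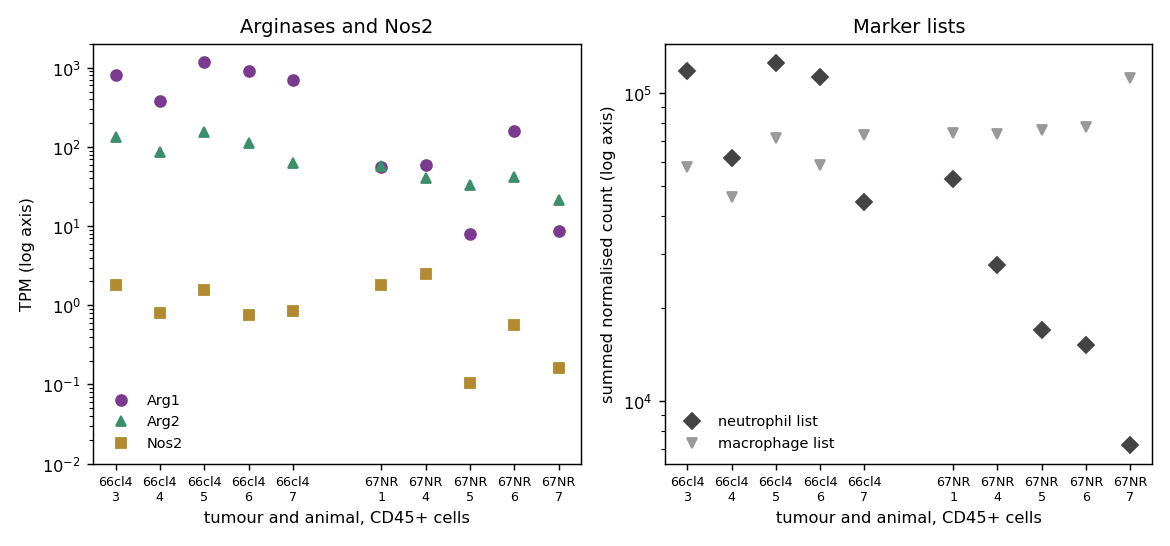
The left panel gives TPM on a log axis for Arg1 (circles), Arg2 (triangles) and Nos2 (squares) in each CD45+ library, and the right panel the summed normalised counts of the neutrophil (diamonds) and macrophage (triangles) marker lists in the same libraries. Arg1 was 382 to 1172 TPM in 66cl4 against 7.90 to 159 TPM in 67NR CD45+ cells, and the neutrophil sum was 44355 to 125374 in 66cl4 against 7225 to 52470 in 67NR CD45+ cells.

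Myeloid markers moved with the tumours as well. The summed level of 10 neutrophil markers was 44355 to 125374 normalised counts in 66cl4 against 7225 to 52470 in 67NR CD45+ cells, and 5 of the 9 neutrophil markers tested were called higher in 66cl4 (55.6%, beside 11.8% of all genes tested called in either direction), with a median log2 fold change of 1.48 over the list against 0.01 over all genes tested. The called markers S100a8, S100a9, Csf3r and Cxcr2 are in gene lists the study drew from this same comparison. The share is thus a description and not a separate test. The summed level of 10 macrophage markers was 45863 to 73090 normalised counts in 66cl4 against 73611 to 112126 in 67NR CD45+ cells, with 1 marker called higher and 1 lower. The sums of the other leukocyte lists in 66cl4 against 67NR CD45+ cells were 28106 to 49175 against 34329 to 52304 normalised counts for monocytes, 1867 to 7325 against 1854 to 6901 for T cells, 147 to 15112 against 362 to 2903 for B cells and 529 to 1947 against 1177 to 12762 for NK cells. Erythroid markers summed to 62.1 to 93.6 against 106 to 817. Called lower in 66cl4 were 4 of 4 tested markers of NK cells, 5 of 5 of mast cells and 3 of 3 erythroid ones. Of 6 monocyte markers 1 was called higher and 2 lower, and no T or B cell marker was called. No neutrophil or macrophage marker was at 0 throughout either CD45+ group. Within 67NR CD45+ cells, animal 6 had the highest Arg1 level with a neutrophil sum of 15157, and animal 1 had the highest neutrophil sum with 1114 normalised counts of Arg1. Within 66cl4 CD45+ cells, animal 5 was highest for both, with 20145 normalised counts of Arg1 and a neutrophil sum of 125374. Animals 4 and 7 of 66cl4 were the lowest for both. The part of these markers in the arginase levels was not tested.

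Of the transporters, Slc7a2 (ENSMUSG00000031596), known as CAT2 and inducible in macrophages, showed a step between the CD45+ groups. It had 242, 161, 505, 586 and 434 normalised counts in 66cl4 CD45+ cells of animals 3 to 7, against 65.6, 49.5, 20.3, 65.9 and 27.8 in 67NR CD45+ cells of animals 1, 4, 5, 6 and 7. The groups did not overlap, and the ratio of the means was 8.42. Slc7a1 (ENSMUSG00000041313), known as CAT1 and present in most cell types, had 697, 741, 945, 647 and 788 normalised counts in 66cl4 CD45+ cells and 287, 376, 491, 445 and 643 in 67NR CD45+ cells, with animals in the same order. Its groups did not overlap either, but by a narrow margin (647 against 643). The log2 fold change of 0.79 (SE 0.178, edgeR adjusted p = 0.00853) did not reach the fold needed for a call. Slc7a1 made up 54.9 to 83.6% of the summed TPM of both transporters in 66cl4 against 82.8 to 96.4% in 67NR CD45+ cells. With the median instead of the longest transcript length these shares were 76.7 to 93.2% and 92.9 to 98.6%.

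The other members of the CD45+ comparison went their own ways. Odc1 (ENSMUSG00000011179), the first enzyme of polyamine synthesis, had 1003, 1171, 1593, 1255 and 1112 normalised counts in 66cl4 CD45+ cells of animals 3 to 7. In 67NR CD45+ cells it had 5051, 5465, 4941, 2705 and 2178 normalised counts in animals 1, 4, 5, 6 and 7. All 67NR libraries were higher than all 66cl4 libraries, and the log2 fold change was -1.73 (SE 0.267, edgeR adjusted p = 0.0011). Ass1 had 553 to 759 normalised counts in 66cl4 against 595 to 814 in 67NR CD45+ cells, with a log2 fold change of -0.05 and a 95% interval from -0.31 to 0.22. Asl had 279 to 476 and 248 to 389 normalised counts, with a log2 fold change of 0.41 (95% interval 0.07 to 0.76, edgeR adjusted p = 0.0812). Oat (ENSMUSG00000030934), which turns ornithine towards proline and glutamate, had 1123 to 1477 and 1064 to 1297 normalised counts, with a log2 fold change of 0.08 (95% interval -0.16 to 0.32).

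Thus 2 of the 7 tested members were called between the CD45+ groups, Arg2 higher and Odc1 lower in 66cl4, beside 11.8% of all genes tested. The libraries of both tumours did not overlap for 2 of the 7, Odc1 and Slc7a1, beside 15.1% of all genes tested. Beside Odc1, the summed level of 5 mast cell markers was 1144 to 3716 normalised counts in 66cl4 against 19144 to 26717 in 67NR CD45+ cells, and the summed level of 7 fibroblast markers was 166 to 1389 and 862 to 3686. CD45+ cells held 28.7% of the Odc1 level of CD45- cells in 67NR and 38.1% in 66cl4 tumours. The same share had a median of 12.9% over 17 markers of non-immune cells in 67NR (range 4.63 to 690%). In 66cl4 tumours the median was 8.81% over 15 (range 4.03 to 1893%). The part of other cell types in the Odc1 level was not tested.

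**Figure D2:**
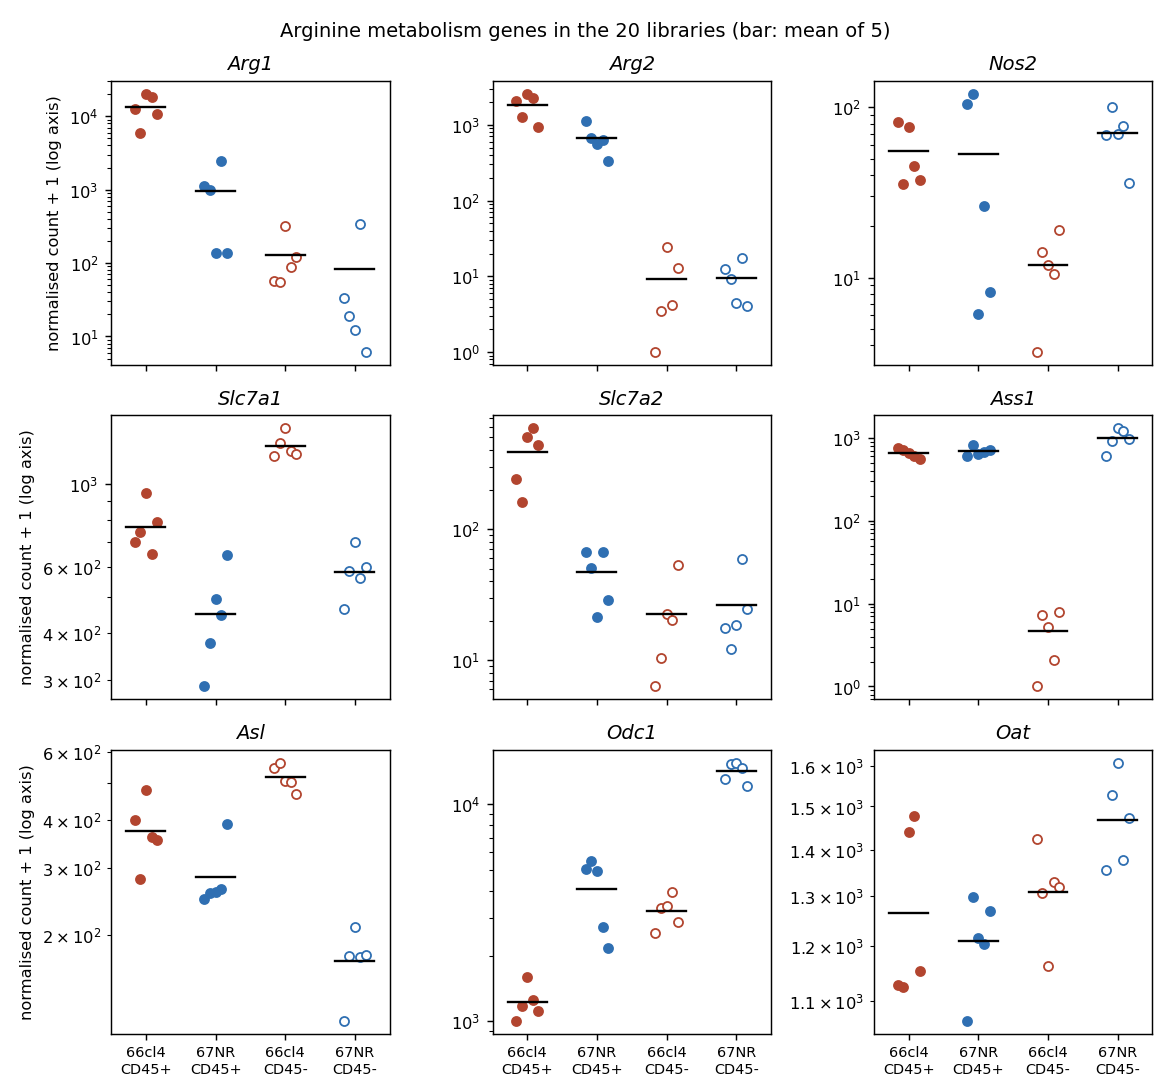
Normalised counts plus 1 on a log axis, 1 panel per gene with its own scale, for CD45+ (filled) and CD45- (open) libraries of 66cl4 (red) and 67NR (blue) tumours, with a bar at the mean of 5. Ass1 lay at 0 to 6.99 in the 66cl4 CD45- libraries and at 553 or above in the other 15, and Oat stayed between 1064 and 1608 in all 20.

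Among the members, CD45- cells of the tumours differed most in Ass1, the enzyme that starts arginine synthesis from citrulline. Ass1 (ENSMUSG00000076441) had 0, 6.23, 4.16, 1.06 and 6.99 normalised counts in 66cl4 CD45- cells of animals 3 to 7, from 0 to 10 counts per library. In 67NR CD45- cells it had 604, 905, 1299, 1205 and 971 normalised counts in animals 1, 4, 5, 6 and 7. The lowest 67NR library stood far above the highest 66cl4 library, and the ratio of the means was 270.1 (log2 fold change -7.84, SE 0.367, edgeR adjusted p = 2.13e-09). In 66cl4 animal 3, which had 0 counts, up to 3 counts would be allowed by counting error alone. Gm5424, a processed copy of Ass1 to which reads could be assigned, had at most 34.7 normalised counts in any library. In 66cl4 CD45- cells it had 3.98 in animal 3, the library without Ass1 counts, and 0 in animals 4 to 7. The part of read assignment in that library was not tested.

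The next enzyme, Asl, was on the other side. Asl (ENSMUSG00000025533) had 544, 563, 504, 500.3 and 465 normalised counts in 66cl4 CD45- cells of animals 3 to 7. In 67NR CD45- cells it had 118, 176, 209, 174 and 176 normalised counts in animals 1, 4, 5, 6 and 7. The groups were well apart, with a log2 fold change of 1.63 (SE 0.131, edgeR adjusted p = 9.08e-08). In TPM, Ass1 was 0 to 0.0214 times the level of Asl in 66cl4 CD45- libraries and 7.25 to 9.84 times its level in 67NR CD45- libraries, whereas CD45+ libraries of both tumours held 1.94 to 4.51 times as much Ass1 as Asl. These ratios depend on the transcript length used: with the median length they were 0 to 0.0122, 4.13 to 5.6 and 1.10 to 2.56, in the same order.

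**Figure D3:**
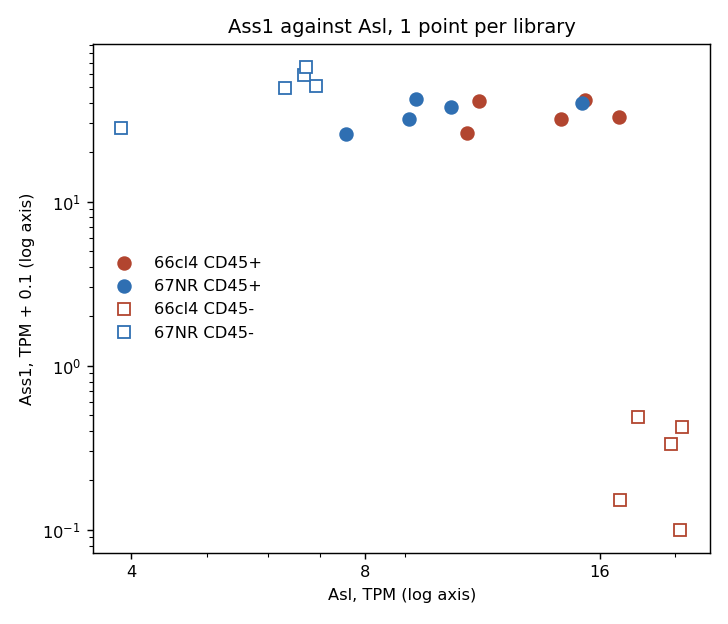
Each point is a library, with Asl on the horizontal and Ass1 (plus 0.1) on the vertical axis, both in TPM on log axes, as circles for CD45+ and squares for CD45- cells. The 5 libraries of 66cl4 CD45- cells lie at the lower right, at 17.0 to 20.4 TPM of Asl and 0 to 0.383 TPM of Ass1.

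Odc1 was lower in 66cl4 in the CD45- gate too. It had 2552, 3330, 3398, 3929 and 2880 normalised counts in 66cl4 CD45- cells and 13052, 15417, 15580, 14649 and 12191 in 67NR CD45- cells. These groups did not overlap, and the log2 fold change was -2.11 (SE 0.124, edgeR adjusted p = 3.45e-09). With 554 ± 85.6 TPM (SD, n = 5) Odc1 ranked 172 among the genes with a transcript length in 67NR CD45- cells, and with 130 ± 17.7 TPM it ranked 613 in 66cl4 CD45- cells. In either CD45- group it had the highest TPM of the 9 members and no library of it overlapped those of Oat, the next. The mast cell sum varied from 447 to 18276 normalised counts between 67NR CD45- libraries and was 0 to 52.9 in 66cl4. Within 67NR the lowest mast cell sum was in animal 1 and the highest in animal 7, where Odc1 had 13052 and 12191 normalised counts. The part of mast cells in the Odc1 level was not tested.

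Slc7a1, Nos2 and the arginases gave the remaining CD45- values. Slc7a1 had 1183, 1281, 1404, 1222 and 1202 normalised counts in 66cl4 CD45- cells and 462, 584, 696, 559 and 597 in 67NR CD45- cells. It was called higher in 66cl4 (log2 fold change 1.15, SE 0.104, edgeR adjusted p = 2.97e-07), with no overlap of the groups. Nos2 had 2.65, 13.1, 10.8, 9.56 and 18.0 normalised counts in 66cl4 CD45- cells and 67.6, 99.8, 68.5, 76.6 and 34.8 in 67NR CD45- cells. All 66cl4 libraries lay below all 67NR libraries, and Nos2 was called lower in 66cl4 (log2 fold change -2.60, SE 0.360, edgeR adjusted p = 2.05e-05), though its mean was at most 1.44 TPM in any of the 4 groups.

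Arg1 and Arg2 were low in CD45- cells of both tumours. Arg1 had 55.7, 53.6, 318, 88.2 and 122 normalised counts in 66cl4 CD45- cells and 32.5, 18.0, 11.4, 337 and 5.11 in 67NR CD45- cells. One library of each tumour, 66cl4 animal 5 and 67NR animal 6, stood above the rest of its group, and the log2 fold change of 0.68 (95% interval -1.79 to 3.15) did not pass the test (edgeR adjusted p = 0.601). Without 67NR animal 6 it was 2.93 and passed (edgeR adjusted p = 0.00393, against 0.00393 to 0.990 over all alternatives). Arg2 had 0 to 23.3 normalised counts in 66cl4 against 3.07 to 16.4 in 67NR CD45- cells, with a log2 fold change of -0.01 (95% interval -1.59 to 1.57). Slc7a2 had 5.31 to 51.9 and 11.3 to 57.8 normalised counts, with a log2 fold change of -0.21 (95% interval -1.44 to 1.01, edgeR adjusted p = 0.754). Oat had 1161 to 1424 and 1354 to 1608 normalised counts, with a log2 fold change of -0.13 (95% interval -0.31 to 0.04).

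In CD45- cells 5 of the 7 members were called, Slc7a1 and Asl higher and Nos2, Ass1 and Odc1 lower in 66cl4, beside 32.2% of all genes tested. For the same 5 the libraries did not overlap, beside 52.9% of all genes tested. The summed level of 6 epithelial markers was 6057 to 6844 normalised counts in 66cl4 against 125 to 391 in 67NR CD45- cells. Of the 5 epithelial markers tested, the keratins Krt8 (log2 fold change 6.47) and Krt18 (4.32) were called higher in 66cl4 and Epcam lower (-1.41, edgeR adjusted p = 0.0267), while Krt14 (1.49) and Cdh1 (-0.65) were not called. Cells of other types and the lines' own keratin levels cannot be told apart in these sums. The summed level of the fibroblast markers was 8005 to 13726 in 66cl4 against 14014 to 21780 in 67NR CD45- cells. No epithelial or fibroblast marker was at 0 throughout either CD45- group. The part of these cell types in the values was not tested.

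**Figure D4:**
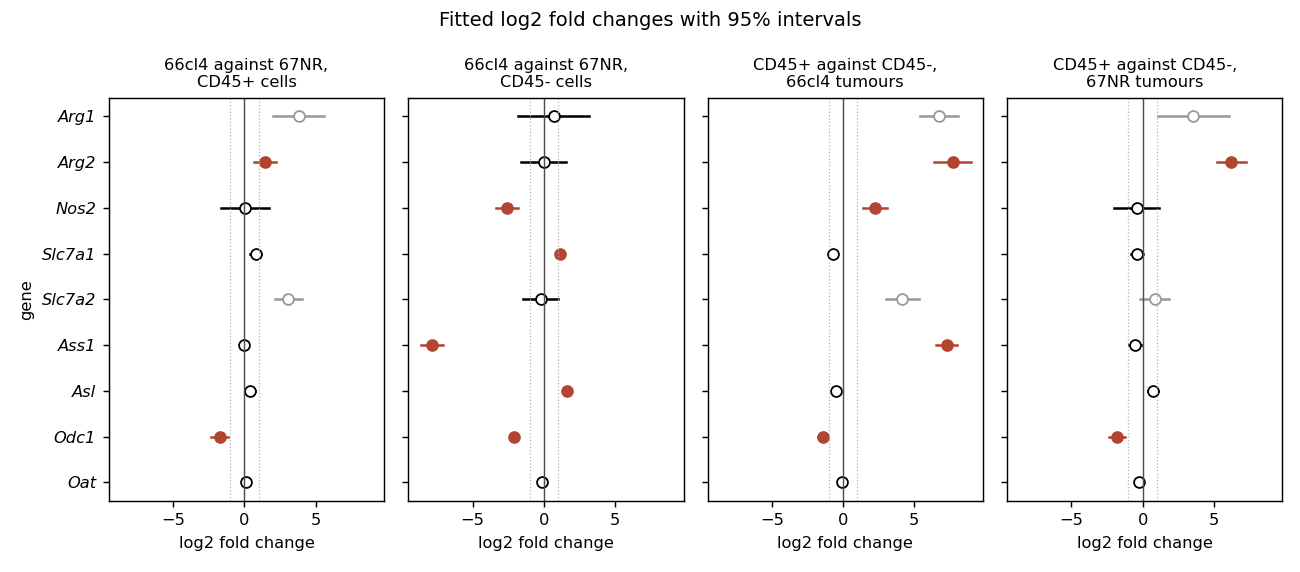
Fitted log2 fold changes with 95% intervals for the 9 members in the 4 comparisons of groups. Filled red points were called, open black points were not, and grey points (Arg1 and Slc7a2 wherever CD45+ libraries enter) are a description without a test. The intervals drawn for grey points do not count as a test either, since the study picked these genes from these libraries. Ass1 in CD45- cells (-7.84) and Ass1 and Arg2 between the gates of 66cl4 (7.25 and 7.67) lie farthest from 0 among the tested members.

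Between the gates of a tumour, the mean levels of both arginases were higher in CD45+ cells. Arg2 was higher there by a log2 fold change of 7.67 in 66cl4 (SE 0.577, edgeR adjusted p = 2.11e-07) and of 6.22 in 67NR tumours (SE 0.459, edgeR adjusted p = 4.06e-07), and its groups did not overlap in either. The mean Arg1 level of CD45- cells was 0.939% of that of CD45+ cells in 66cl4 and 8.33% in 67NR tumours. Its gates did not overlap in 66cl4, but in 67NR the CD45- library of animal 6 (337 normalised counts) lay above the CD45+ libraries of animals 5 and 7 (137 and 136). The ratio of CD45+ to CD45- means of Arg1 in 67NR was 12.0, and it was 58.0 without the CD45- library and 7.35 without the CD45+ library of animal 6. In 66cl4 it was 107, and 170.1 without the CD45- library of animal 5. The Arg2 share was 0.453% in 66cl4 and 1.3% in 67NR, and without the CD45- library of 66cl4 animal 5 the ratio of its means in 66cl4 went from 221 to 409. The same share had a median of 0.650% over 47 immune marker genes in 66cl4 (range 0 to 112%). In 67NR tumours the median was 2.46% over 48 (range 0.453 to 61.3%). Slc7a2 was 18.0-fold higher in CD45+ than in CD45- cells of 66cl4 tumours and 1.81-fold in those of 67NR, where the groups overlapped. Without the CD45- library of 66cl4 animal 7 the former was 27.8-fold.

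Ass1 separated the gates in 66cl4 tumours, where it was higher in CD45+ cells by a log2 fold change of 7.25 (SE 0.325, edgeR adjusted p = 2.61e-09). CD45- cells held 0.561% of the CD45+ level, beside the median of 0.650% (range 0 to 112%) over the immune markers of this tumour. In 67NR tumours CD45- cells held 146% of the CD45+ level, the groups overlapped and the log2 fold change was -0.54 (SE 0.184, edgeR adjusted p = 0.0211), short of the fold needed for a call. Odc1 was lower in CD45+ cells of both tumours, with log2 fold changes of -1.42 in 66cl4 (edgeR adjusted p = 2.38e-06) and -1.79 in 67NR (edgeR adjusted p = 8.47e-05). Nos2 was called higher in CD45+ cells of 66cl4 tumours (log2 fold change 2.23, SE 0.387, edgeR adjusted p = 0.000201), whereas in 67NR tumours the log2 fold change was -0.43 (95% interval -2.0 to 1.15). Slc7a1 was lower in CD45+ cells of 66cl4 tumours, with no overlap (log2 fold change -0.75, SE 0.112, edgeR adjusted p = 5.41e-05), and its value in 67NR tumours was -0.38 (edgeR adjusted p = 0.0893). Asl had log2 fold changes of -0.50 in 66cl4 (edgeR adjusted p = 0.00421) and 0.73 in 67NR tumours (edgeR adjusted p = 0.00241), and Oat of -0.08 (edgeR adjusted p = 0.522) and -0.28 (edgeR adjusted p = 0.014). No gate difference of these 3 genes reached the fold needed for a call. In 66cl4 tumours 4 of the 7 members were called, Arg2, Nos2 and Ass1 higher and Odc1 lower in CD45+ cells, beside 44.4% of all genes tested, and 5 of the 7 did not overlap beside 61.4%. In 67NR tumours 2 of the 7 were called, Arg2 higher and Odc1 lower, beside 39.8% of all genes tested, and 4 of the 7 did not overlap beside 55.5%.

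Whether the tumours differed by the same amount in both gates was asked with an interaction term over the 20 libraries. Of the 7 members 3 passed, beside 43.1% of all genes tested. The log2 fold change of Ass1 between the tumours was -0.05 in CD45+ and -7.84 in CD45- cells, and the interaction, the first minus the second, was 7.81 (SE 0.385, edgeR adjusted p = 1.03e-11). For Nos2 the log2 fold changes were 0.06 in CD45+ and -2.60 in CD45- cells, and the interaction was 2.69 (SE 0.894, edgeR adjusted p = 0.0207). The Nos2 call was lost without 66cl4 animals 5 and 6 (2.55, edgeR adjusted p = 0.103, against 0.00552 to 0.103 over all alternatives). For Asl the interaction was -1.21 (SE 0.222, edgeR adjusted p = 0.000211), with log2 fold changes of 0.41 in CD45+ and 1.63 in CD45- cells. The interaction did not pass for Odc1 (0.40, 95% interval -0.21 to 1.01, edgeR adjusted p = 0.285), Arg2 (1.49, 95% interval -0.20 to 3.18, edgeR adjusted p = 0.144), Slc7a1 (-0.36, 95% interval -0.84 to 0.11) or Oat (0.22, 95% interval -0.07 to 0.50). Without the CD45- library of 66cl4 animal 5 the Arg2 term passed (2.29, edgeR adjusted p = 0.0327, against 0.0327 to 0.335 over all alternatives). Without the CD45+ library of 67NR animal 1 the Slc7a1 term passed (-0.51, edgeR adjusted p = 0.0464, against 0.0464 to 0.432).

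Ranked by mean TPM, the members stood in a different order in each group. In 66cl4 CD45+ cells the order was Arg1, Arg2, Oat, Odc1, Ass1, Asl, Slc7a1, Slc7a2 and Nos2, and the neighbours whose libraries overlapped were Oat and Odc1, Odc1 and Ass1, and Asl and Slc7a1. In 67NR CD45+ cells Odc1 led with 157 ± 51.1 TPM (SD, n = 5), followed by Arg1, Oat, Arg2 and Ass1, each overlapping the next. In CD45- cells Odc1 and Oat led in both tumours, followed by Asl, Slc7a1 and Arg1 in 66cl4 and by Ass1, Slc7a1 and Asl in 67NR, where Oat overlapped Ass1. Asl and Slc7a1 overlapped in both. Ass1 was the third of the 9 in 67NR and the last in 66cl4 CD45- cells. Several places depended on the transcript length used for TPM. With the median instead of the longest transcript Slc7a1 rose from place 7 to place 4 in 66cl4 CD45+ cells. It also passed Asl in 67NR CD45+ and in 66cl4 CD45- cells. Oat passed Arg1 in 67NR CD45+ cells, and Slc7a2 passed Arg2 in 67NR CD45- cells.

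The other genes of the pathway, 59 in all, were counted in 6 lists. In CD45+ cells 2 of 50 tested were called higher and 3 lower in 66cl4, all in the lists of polyamines, of the urea cycle and citrulline and of nitric oxide. These are 10.0% of the list beside 11.8% of all genes tested, with a median log2 fold change of 0.09 against 0.01 over all genes tested. In CD45- cells 8 of 53 were called higher and 13 lower, 39.6% of the list beside 32.2% of all genes tested, with a median of -0.20 against -0.01.

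In the polyamine list, which takes ornithine from Odc1 onwards, 1 of 18 genes was called higher and 2 lower in 66cl4 CD45+ cells. Smox, the oxidase of spermine, had 872 to 2421 normalised counts in 66cl4 against 339 to 851 in 67NR CD45+ cells (log2 fold change 1.57, edgeR adjusted p = 0.00972). Paox, which oxidises acetylated polyamines, had 80.0 to 128 and 200.2 to 336 (log2 fold change -1.32, edgeR adjusted p = 0.000652), and Azin2, an inhibitor of the antizymes that restrain Odc1, had 5.56 to 12.5 and 17.3 to 41.8 (log2 fold change -1.46, edgeR adjusted p = 0.0148). In CD45- cells 2 were called higher and 5 lower. Dhps and Eif5a2, an enzyme and a target of the hypusine modification built from spermidine, went opposite ways. Dhps was 372 to 431 normalised counts in 66cl4 against 117 to 142 in 67NR CD45- cells (log2 fold change 1.65, edgeR adjusted p = 2.56e-09), and Eif5a2 was 1.87 to 6.37 and 84.3 to 125 (log2 fold change -4.44, edgeR adjusted p = 1.03e-08). Amd1, which supplies the aminopropyl groups of polyamines and whose reads may be shared with its copy Amd2, had a log2 fold change of 1.13 (edgeR adjusted p = 2.78e-06), and Azin2 one of -3.36 (edgeR adjusted p = 1.67e-08).

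In the list of the urea cycle and citrulline, 1 of 4 tested genes was called in CD45+ cells and 2 of 4 in CD45- cells. Slc25a13, the mitochondrial carrier that exports the aspartate Ass1 uses, had 262 to 368 normalised counts in 66cl4 against 130 to 149 in 67NR CD45+ cells (log2 fold change 1.18, edgeR adjusted p = 0.000171). In CD45- cells it had 365 to 503 and 79.0 to 118 (log2 fold change 2.10, edgeR adjusted p = 9.9e-09), so it was called higher in 66cl4 in both gates. Slc25a29, a mitochondrial carrier of basic amino acids, had 21.2 to 49.1 normalised counts in 66cl4 against 53.5 to 119 in 67NR CD45- cells (log2 fold change -1.37, edgeR adjusted p = 0.00031). In the list of arginine transport and sensing, 1 of 10 genes was called higher and 4 lower in CD45- cells. Castor1, a cytosolic sensor of arginine upstream of mTORC1, had 2.49 to 5.31 normalised counts in 66cl4 against 35.1 to 66.7 in 67NR CD45- cells (log2 fold change -3.98, edgeR adjusted p = 5.15e-08), against 69.4 to 121 and 51.5 to 98.8 in CD45+ cells. Slc7a6, an exchanger of basic and neutral amino acids, had 1115 to 1397 and 594 to 666 in CD45- cells (log2 fold change 1.04, edgeR adjusted p = 7.16e-08).

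In the list of nitric oxide and its cofactors, 1 of 10 tested genes was called in CD45+ cells, where Gchfr, a regulator of Gch1, was lower in 66cl4 (log2 fold change -2.02, edgeR adjusted p = 0.0239). In CD45- cells 1 of 11 was called higher and 1 lower. Gch1, the first enzyme of the cofactor that nitric oxide synthases need, had 117 to 218 normalised counts in 66cl4 against 9.65 to 31.2 in 67NR CD45- cells (log2 fold change 3.07, edgeR adjusted p = 3.31e-07). Nos3, the endothelial synthase, had 0 to 11.0 and 53.9 to 91.5 (log2 fold change -3.95, edgeR adjusted p = 5.67e-06), beside summed levels of 6 endothelial markers of 491 to 966 and 926 to 3856. Of 5 creatine genes, Ckmt1 was called higher in 66cl4 CD45- cells, and Slc6a8, the creatine transporter, and Gamt lower. Slc6a8 had 201 to 291 and 863 to 1035 normalised counts (log2 fold change -1.98, edgeR adjusted p = 1.86e-09). In the list of proline and glutamate, which takes ornithine from Oat onwards, 2 of 5 were called higher in 66cl4 CD45- cells, among them Pycr1, the last enzyme of proline synthesis (log2 fold change 1.26, edgeR adjusted p = 2.33e-05).

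**Figure D5:**
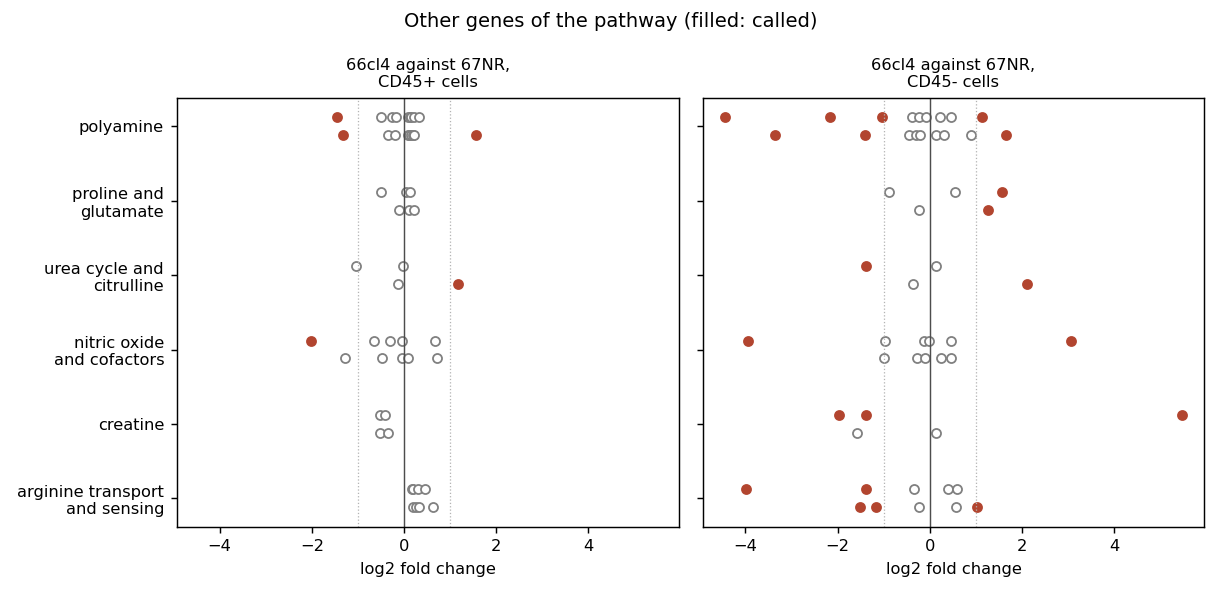
Each point is the log2 fold change of a gene of the 6 pathway lists between 66cl4 and 67NR, in CD45+ cells on the left and CD45- cells on the right, filled where called. In CD45+ cells 5 of 50 points are filled, and in CD45- cells 21 of 53, with Ckmt1 (5.47) and Eif5a2 (-4.44) farthest from 0.

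Cytokines and transcription factors that are known to act on Arg1 or Nos2 were counted as a separate list of 24. Of these, 3 were called higher and 4 lower in 66cl4 CD45+ cells (29.2%, beside 11.8% of all genes tested), with a median log2 fold change of 0.11 against 0.01 over all genes tested. Il1b, an inflammatory cytokine, had 42569 to 96203 normalised counts in 66cl4 against 14560 to 41008 in 67NR CD45+ cells (log2 fold change 1.25, edgeR adjusted p = 0.0162), and Epas1, the hypoxia-inducible factor 2α, had 274 to 347 and 64.0 to 129.6 (log2 fold change 1.70, edgeR adjusted p = 0.000129). Ifng, known to induce Nos2, had 25.1 to 68.5 and 108 to 617 (log2 fold change -3.08, edgeR adjusted p = 0.000769). Il13, known to induce Arg1, had 0 to 14.7 and 6.24 to 39.6 (log2 fold change -2.51, edgeR adjusted p = 0.0333). In CD45- cells 2 of 21 were called higher and 6 lower (38.1%, beside 32.2%), among them Il6, which had 10.6 to 30.8 normalised counts in 66cl4 against 388 to 719 in 67NR (log2 fold change -4.40, edgeR adjusted p = 3.47e-09).

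The genes whose log2 levels were most like those of Arg1 over the 20 libraries, out of 16453, were F5 (Pearson's r = 0.947), Gm43181 (0.945), Gm36172 (0.937), Plin2 (0.932) and Homer1 (0.928). These values mostly follow the 4 groups. Once each library was taken as its deviation from its group mean, the closest were Cxcl3 (0.826), Angptl4 (0.789), Clec4d (0.775), Gm43181 (0.769) and F10 (0.765). Cxcl3 codes for a chemokine that attracts neutrophils and Angptl4 for a secreted inhibitor of lipoprotein lipase. For Nos2 the closest by levels were Tnfaip6 (0.849), Gm44443 (0.844), Cldn1 (0.842), Gm39459 (0.829) and Tnfrsf23 (0.825), and by deviations Tnfrsf26 (0.878), B230303A05Rik (0.871), Ankrd33b (0.867), Egln3 (0.862) and Mmrn2 (0.851). Among the members themselves the deviations were closest for Slc7a1 and Asl (0.691), Arg1 and Slc7a2 (0.684) and Arg1 and Arg2 (0.655), and most opposed for Nos2 and Slc7a1 (-0.552). These are descriptions over libraries that share depth, animals and cell makeup.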

How the data were processed

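RNA of sorted cells was sequenced by the authors from SENSE mRNA libraries. The submitters' processing notes name bcl2fastq 2.2.20 and Salmon 1.3.0, and the methods add trimming with fastp and summing to genes with tximport. The deposited values are estimated counts per gene without normalisation. The notes name GRCh38, a human build, whereas the identifiers are those of mouse. The mouse build is not given in the sources used here, so no coordinates are given for the counted genes. A name was found for 51492 of 52783 identifiers. Reads shared by similar genes are divided by the estimation, so counts of genes with near copies are uncertain.

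Estimated counts were rounded and compared in R 4.3.3 with edgeR 4.0.16 (TMM, quasi-likelihood test, robust fit, its filter on low counts at 10 per library and 15 in total, Benjamini-Hochberg adjustment), using only the groups compared, and for the interaction all 4. P-values measure the spread between animals. The gate and interaction fits do not pair the CD45+ and CD45- libraries of an animal, so their p-values take these libraries as independent. Levels are counts over size factors of DESeq2 1.42.0. TPM used the longest coding transcript of each gene in GENCODE M21, and 2.58% of counts had no length. The fits were also run on simulated counts with a single spread for all genes and independent libraries. Those settings differ from these data, so that run does not show how the fits behave on them. Replicates differed by more than sampling noise (chi-square per degree of freedom 13.5 to 170). Figures were drawn with matplotlib 3.10.9.

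The 9 members and all lists were chosen with earlier results of these data known. Named list genes were at most 2 called genes per list, comparison and direction, and for Arg1 and Nos2 the 5 genes with the highest correlation. Marker lists covered neutrophils, macrophages, monocytes, T, B, NK and mast cells, fibroblasts, epithelium, endothelium and erythroid cells. Libraries of both gates with 1 number come from the same animal, and their deviations from the group means correlated at 0.0245 to 0.124 (66cl4) and -0.00142 to 0.303 (67NR). Across the 2 models the numbers name different animals. Alternatives were DESeq2's test, RLE factors, no filter, a stricter filter (10 counts in at least 5 libraries), a fit with all 20 libraries, a block for the animal number, omitting 66cl4 animals 5 and 6, and omitting each library in turn. Library totals as scaling and TPM with the median transcript length were added after seeing the data.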

Additional observations from a re-analysis of the deposited data

Results flagged for a closer look

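In 4 of the 36 groups of 5 libraries examined, 1 library stood apart from the others of its group by Dixon's test, where chance alone gives about 1.8. Arg1 was 318 normalised counts in 66cl4 CD45- cells of animal 5, against 53.6 to 122 in the other 4. That library also had the highest neutrophil and macrophage sums of its group, 514 and 1980 normalised counts. Its monocyte (201), T (17.5), B (85.7), NK (180) and mast cell (7.49) sums were below those of animal 7 (293, 64.9, 120, 224 and 52.9). Ptprc was 138 normalised counts there and 161 in animal 7. Arg1 was 337 in 67NR CD45- cells of animal 6, against 5.11 to 32.5. There the neutrophil sum was 957, within the 669 to 978 of the group, and the macrophage sum was 1834, within 1195 to 4218, whereas the monocyte sum (930, against 438 to 864), the epithelial sum (391, against 125 to 165) and the fibroblast sum (21780, against 14014 to 20327) were the highest of the group. The same library had 57.8 normalised counts of Slc7a2, against 11.3 to 23.5. Asl was 389 in 67NR CD45+ cells of animal 7, against 248 to 262. The part of other cells in these values was not tested.

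For 3 of the 7 tested members the tumour effect differed between the gates by the interaction in edgeR, beside 43.1% of all genes tested. The log2 fold change between the tumours in CD45+ cells, minus that in CD45- cells, was 7.81 for Ass1 (-0.05 against -7.84), 2.69 for Nos2 (0.06 against -2.60) and -1.21 for Asl (0.41 against 1.63). The Nos2 call was lost without 66cl4 animals 5 and 6 (edgeR adjusted p = 0.103) and without a filter (edgeR adjusted p = 0.0554).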

How the results depend on the processing

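Of the 7 tested members, 2 were called in CD45+ cells and 5 in CD45- cells, beside 11.8% and 32.2% of all genes tested. Between the gates of 66cl4 and 67NR tumours 4 and 2 were called, beside 44.4% and 39.8%. For the interaction 3 passed, beside 43.1%. The counts kept these values, or came within 1.5 times of them, under the alternatives run. The exception was 1 member called in CD45+ cells without 66cl4 animals 5 and 6. The count of pathway genes called in CD45+ cells, 5, became 8 with all 20 libraries in the fit and 3 without 66cl4 animals 5 and 6. The causes were not tested, except that the latter fit has fewer libraries. With the animal number as a block the members called were again 2, 5, 4, 2 and 3. Only between the gates and for the interaction does this block stand for the same animal. Between the tumours it joins different animals that share a number, and 66cl4 animal 3 and 67NR animal 1 drop out. There the unchanged 2 and 5 are no check on the animal. No called difference of a member changed direction under any of them. Leaving out 67NR CD45- animal 6 brought the fitted Arg1 difference of CD45- cells past the threshold, as given above, and without a filter the Nos2 interaction was 2.64 (edgeR adjusted p = 0.0554, against 0.00552 to 0.103 over all alternatives). Scaling by library totals shifted the median log2 fold change of all genes between the gates of 66cl4 tumours from 0.00308 to -0.0976. Depth limits Arg2 and Ass1 in CD45- cells of 66cl4 tumours, where single libraries held 0 counts.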
